A study of Danio rerio with 4 samples.

Results

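Genes for the making of melanin were followed in 4 RNA-seq libraries of zebrafish, *Danio rerio*. All embryos were wild type and were taken whole, and 2 libraries came from embryos exposed to SYP-3343 and 2 from untreated controls. SYP-3343, a compound known here by its code, was present at 8 µg/L between 3 and 24 hours after fertilization, and the study asks, by its title, how it harms development by way of mitochondria and reactive oxygen species. The design text speaks of 40 embryos without saying if they make up a library or a group, and the libraries are called biological replicates with no clutch or tank named, so the p-values rest on a spread among libraries that may be technical. The set was defined by symbol as *mitfa*, *tyr*, *tyrp1a*, *tyrp1b*, *dct*, *pmela*, *oca2*, *slc24a5*, *slc45a2* and *mlpha*, and its 10 symbols led to 11 identifiers of the 28290 gene models in the count table. The name table gives *MITF* for 2 identifiers and *TYRP1* for 2, without a paralog letter, so all of these were kept and are named with their identifier. Which of each pair is the a or the b copy is not stated in the sources used here, and reads shared between copies could have been split by the authors' counting. For *mlpha* the one identifier named *MLPH* was used.

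Melanin in fish is made in black pigment cells of neural crest origin, the melanophores, and in the retinal pigment epithelium behind the eye. MITF, a basic helix-loop-helix factor, switches on the pigment genes in melanophores, and fish that lack *mitfa* have no body melanophores. Tyrosinase, TYRP1 and DCT are the enzymes that turn tyrosine into melanin inside an organelle called the melanosome, whose fibrils are built from PMEL. Transporters of the melanosome membrane set its ions and acidity, and MLPH links finished melanosomes to the motor that carries them. In zebrafish, melanin becomes visible at about the stage at which the exposure ended.

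In exposed embryos 8 of the 11 identifiers rose, among them each of the 4 pigment enzyme identifiers, the fibril gene and each of the 3 transporters. The remaining 3, both *MITF* identifiers and *mlpha*, did not pass the test. None fell, neither by edgeR's quasi-likelihood test at an adjusted p under 0.05, nor at an unadjusted p under 0.05, nor with DESeq2 or limma-voom. Over all 22647 genes tested, 16.6% were called higher and 15.3% lower by the same test. The median log2 fold change of the 11 identifiers, SYP-3343 minus control, was 0.76, against -0.01 over all genes tested. A change of at least 1 on the log2 scale was found for 4 members, *oca2*, *TYRP1* copy ENSDARG00000029204, *slc24a5* and *slc45a2*. Of all genes, 3.29% were called higher with a change that large. Among these members, only *oca2* kept such a change with library sizes alone. There *TYRP1* copy ENSDARG00000029204 changed by 0.96, *slc24a5* by 0.88 and *slc45a2* by 0.68. Without SYP-3343 replicate 2 the same genes changed by 0.90, 0.96 and 0.80, in that order. With the scaling described below, both exposed libraries lay above both controls for 10 of the 11 members, and this held for 32.2% of all genes tested. With library sizes alone it held for 8 members. The share of all genes is not given for that scaling, under which 6.21% of all genes were called higher and 41.4% lower. The 32.2% is therefore no background for the count of 8. For *MITF* copy ENSDARG00000003732 both exposed libraries lay below both controls with library sizes alone. In RNA of whole embryos, more pigment cells and more RNA per pigment cell cannot be told apart.

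All levels below are CPM, the counts of a gene scaled to a common library total, adjusted by TMM, a factor that balances the libraries by their bulk of genes, and log2 fold changes are given ± SE. Transcript lengths were not used here, so levels are compared between libraries and not between genes. All 11 members passed the filter on low counts.

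Among the enzymes, tyrosinase catalyses the first and rate-limiting step, from tyrosine to dopaquinone. *tyr* (ENSDARG00000039077) had 30.5 and 38.2 CPM in SYP-3343 replicates 1 and 2, against 21.0 and 21.8 CPM in control replicates 1 and 2. The groups did not overlap, and *tyr* rose 1.60-fold (log2 fold change 0.68 ± 0.11, edgeR adjusted p = 6.98e-05). DCT, dopachrome tautomerase, acts in the middle of the pathway. *dct* (ENSDARG00000006008) had 139 and 176 CPM in exposed embryos, against 93.0 and 93.6 CPM in controls, and rose 1.69-fold (0.76 ± 0.10, adjusted p = 7.61e-06). The controls lay close together, the exposed libraries further apart, and the groups did not overlap.

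TYRP1 acts late in the pathway and steadies tyrosinase in mammals, and its identifiers rose by unequal amounts. *TYRP1* copy ENSDARG00000056151 had 276 and 336 CPM in SYP-3343 libraries, against 196 and 187 CPM in controls, a 1.59-fold rise (0.67 ± 0.10, adjusted p = 3.13e-05). *TYRP1* copy ENSDARG00000029204 had 109 and 179 CPM in SYP-3343 libraries, against 59.5 and 57.4 CPM in controls, a 2.46-fold rise (1.30 ± 0.14, adjusted p = 4.94e-07). Its exposed libraries differed 1.64-fold from each other, the widest gap of the 8 called members, and both were above both controls. With robust estimation of the dispersion its call ended (adjusted p = 0.0712, against 9.23e-39 to 0.00147 under the other alternatives), and its change was 1.62 on the log2 scale without SYP-3343 replicate 1 and 0.90 without SYP-3343 replicate 2.

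PMEL forms the fibrils on which melanin is laid down. *pmela* (ENSDARG00000091298) had 242 and 315 CPM in exposed embryos, against 165 and 158 CPM in controls, and rose 1.73-fold (0.79 ± 0.11, adjusted p = 9.94e-06). Its paralog *pmelb* (ENSDARG00000033760), no member of the set, had 41.0 and 51.2 CPM in exposed embryos, against 45.5 and 45.4 CPM in controls, and did not pass (0.02 ± 0.10, adjusted p = 0.906). The direction of *pmelb* depended on the scaling, and with library sizes alone it was lower (-0.32, adjusted p = 0.0201).

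The transporters held the largest change of the set. OCA2 is a melanosomal membrane protein needed for normal acidity, and its loss causes albinism in people and fish. *oca2* (ENSDARG00000061303) had 21.8 and 27.3 CPM in SYP-3343 libraries, against 6.84 and 6.52 CPM in controls. The means were 24.5 ± 3.87 CPM in exposed embryos and 6.68 ± 0.231 CPM in controls (SD, n = 2 each), a 3.67-fold rise (1.88 ± 0.13, edgeR adjusted p = 5.16e-10). Of all genes tested, 0.773% had a higher log2 fold change than *oca2*. Over the alternatives its change was between 1.54 and 2.03 on the log2 scale.

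SLC24A5 is a sodium, potassium and calcium exchanger whose loss gives the golden zebrafish, with pale melanophores. *slc24a5* (ENSDARG00000024771) had 10.6 and 14.8 CPM in exposed embryos, against 5.20 and 5.60 CPM in controls, and rose 2.34-fold (1.22 ± 0.16, adjusted p = 5.41e-06). SLC45A2, mutated in the albino zebrafish, is a transporter related to sugar carriers. *slc45a2* (ENSDARG00000002593) had 44.2 and 58.1 CPM in exposed embryos, against 28.4 and 22.4 CPM in controls, and rose 2.02-fold (1.01 ± 0.12, adjusted p = 2.13e-06). It was the one called member whose controls were further apart than 1.1-fold, at 0.789 for replicate 2 over replicate 1. Of their relatives outside the set, *SLC24A4* copy ENSDARG00000015425 (log2 fold change -0.47 ± 0.22) and copy ENSDARG00000067509 (-0.59 ± 0.47) did not pass with TMM. Copy ENSDARG00000015425 was called lower with library sizes alone (-0.81). *SLC45A1* (-0.48 ± 0.13, adjusted p = 0.00637) fell, but did not pass without SYP-3343 replicate 1 (adjusted p = 0.147).

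**Figure D1:**
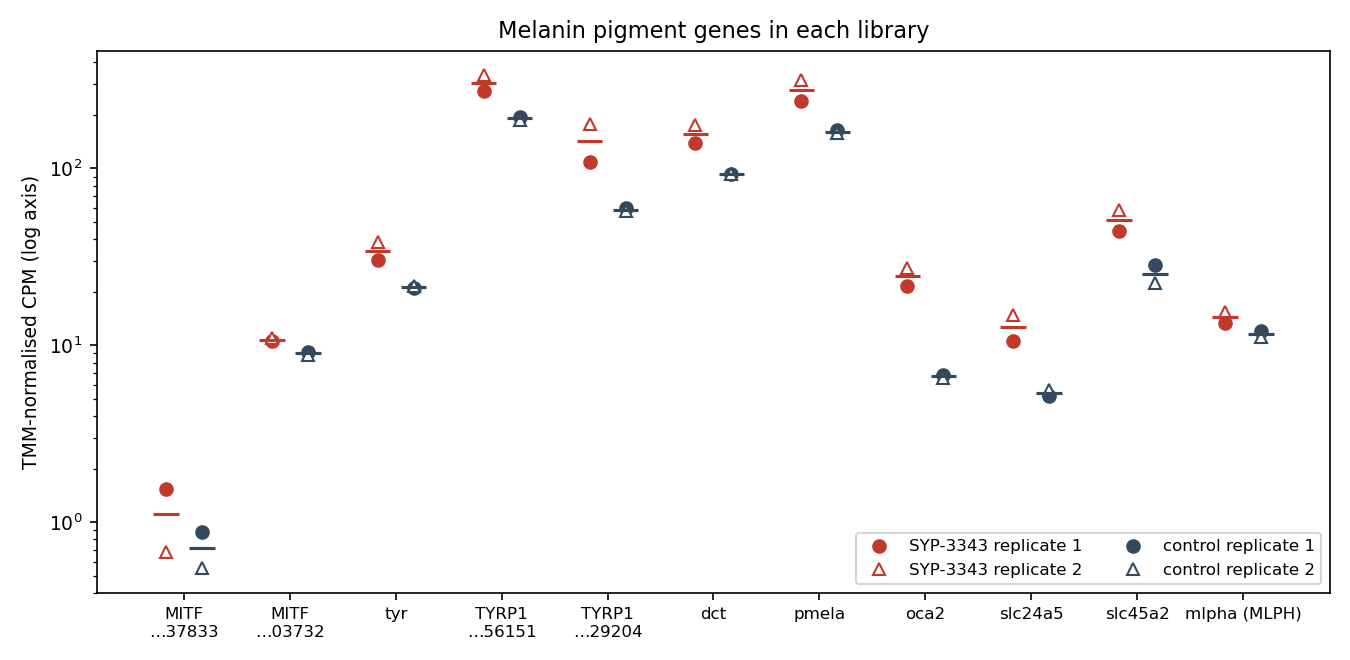
Level of each melanin pigment gene in TMM-normalised CPM (log axis) in the SYP-3343 libraries (red) and the control libraries (dark), with circles for replicate 1, triangles for replicate 2 and bars for group means. For 10 of 11 members both exposed libraries lie above both controls, and SYP-3343 replicate 2 is mostly the higher of its group.

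For the regulator and the carrier of the set no change passed the test. *MITF* copy ENSDARG00000003732 had 10.6 and 11.0 CPM in exposed embryos, against 9.23 and 8.83 CPM in controls. The groups did not overlap, but the change did not pass (0.26 ± 0.13, adjusted p = 0.149), with a 95% interval from -0.02 to 0.53 on the log2 scale, and it turned to -0.077 with library sizes alone. *MITF* copy ENSDARG00000037833 was rare, with 70 and 29 counts in SYP-3343 libraries, against 45 and 37 counts in controls. Its groups overlapped, and its change (0.69 ± 0.43, adjusted p = 0.241) had an interval from -0.21 to 1.58 that holds both no change and a rise as large as that of most members.

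MLPH, melanophilin, joins the small GTPase RAB27A on the melanosome to myosin Va. *mlpha* (ENSDARG00000070991, named *MLPH*) had 13.3 and 15.5 CPM in exposed embryos, against 12.1 and 11.2 CPM in controls, and missed the threshold (0.31 ± 0.13, adjusted p = 0.0662, interval 0.05 to 0.57 before adjustment for the number of genes). With library sizes alone its change was -0.027. Its paralog *mlphb* did not pass with TMM either (-0.13 ± 0.13), but was called lower with library sizes alone (-0.46). Over the alternatives its change was between -0.46 and -0.022.

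**Figure D2:**
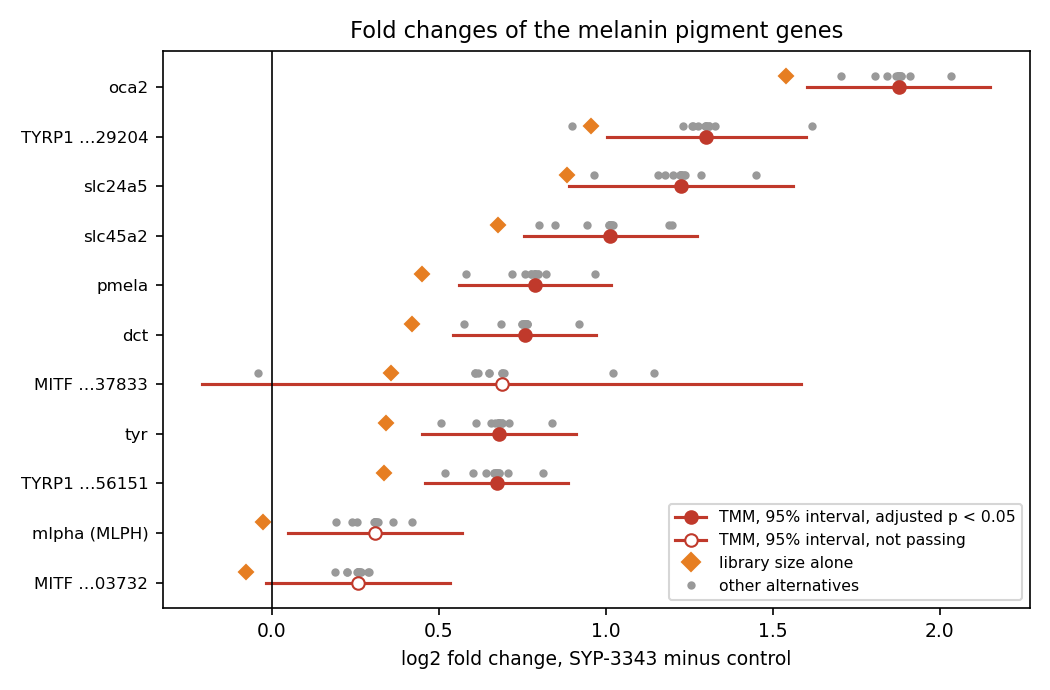
Log2 fold change of each member, SYP-3343 minus control, with its 95% interval (filled red where the adjusted p was under 0.05), with library sizes alone (orange) and under the other alternatives (grey). The 8 called members stay above 0 under each alternative, while both *MITF* identifiers and *mlpha* reach 0 or below in at least 1 of them.

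The 8 calls held without the TMM scaling, whose factors differed between the groups (0.923 and 0.860 for SYP-3343, 1.11 and 1.14 for controls). With library sizes alone the same 8 members were called, where 6.21% of all genes were called higher and 41.4% lower. The median over all genes then moved to -0.35, and that of the members to 0.42. A change of scaling shifts every gene by about the same amount. The distance of 0.77 between these medians, the same as with TMM, is therefore no check on the rise. Summed over the set, 0.0829% and 0.101% of all counts fell on these genes in SYP-3343 libraries, against 0.0662% and 0.0652% in controls, or 1.40 times as much. In TMM-scaled CPM the sums were 899 and 1171 in exposed embryos, against 597.5 and 573 in controls.

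The exposed libraries differed from each other across the set. In TMM-scaled CPM, SYP-3343 replicate 2 was above SYP-3343 replicate 1 for 10 of 11 members, between 1.04-fold and 1.64-fold, while control replicate 2 was above control replicate 1 for 3 of 11. With library sizes alone *MITF* copy ENSDARG00000003732 had the opposite order, with 9.76 CPM in SYP-3343 replicate 1 and 9.45 CPM in SYP-3343 replicate 2. Among the 14107 tested genes with a mean of at least 5 CPM, the median gap between the exposed libraries was 0.11 on the log2 scale, and that between the controls 0.12. Taken with its sign, replicate 2 minus replicate 1, the exposed gap had a median of 0.009 over these genes. For *tyr*, *dct*, *pmela* and *oca2* the gap was from 0.32 to 0.38 on the log2 scale in the exposed group, and from 0.01 to 0.07 in the control group. Both *TYRP1* identifiers and *slc24a5* also had the wider gap in the exposed group. The gaps of *slc45a2* were 0.39 exposed and 0.34 control, and those of *mlpha* 0.22 and 0.11. *MITF* copy ENSDARG00000003732 had 0.055 and 0.065. *MITF* copy ENSDARG00000037833 had 1.15 and 0.64, with replicate 2 the lower in both groups. Leaving out SYP-3343 replicate 2 lowered the median of the set to 0.58, and leaving out SYP-3343 replicate 1 raised it to 0.92, with 8 members called higher both times.

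Ratios between members within a library need no scaling factor. The count of *dct* was taken as the base because it is the middle enzyme of the pathway and well counted, a choice made after its values were seen. *pmela* had 1.74 and 1.79 times the counts of *dct* in SYP-3343 libraries, against 1.77 and 1.69 times in controls, and these overlapped. *tyr* had 0.219 and 0.217 times the counts of *dct* in exposed embryos, against 0.226 and 0.233 times in controls, and *TYRP1* copy ENSDARG00000056151 had 1.98 and 1.91 times in exposed embryos, against 2.11 and 2.00 times in controls. The last 2 ratios were slightly lower in exposed embryos, by 0.07 and 0.08 on the log2 scale (differences -0.07 and -0.08). Each of these genes and *dct* rose by 0.67 to 0.79. The last 2 ratios did not overlap between the groups, but the share of all genes with such ratios is not given here. Both differences were smaller than the SE of each gene's own change (0.10 to 0.11), so no relative fall is read from them.

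*oca2* moved further than *dct*, with 0.156 and 0.155 times the counts of *dct* in exposed embryos, against 0.0736 and 0.0697 times in controls, a difference of 1.12 on the log2 scale. Its share of all counts on the set was 2.43% and 2.33% in SYP-3343 libraries, with exact binomial 95% intervals from 2.28% to 2.58% and from 2.20% to 2.46%. In controls the share was 1.15% and 1.14%, with intervals from 1.03% to 1.27% and from 1.03% to 1.25%, and such intervals cover counting error alone. Relative to *dct*, *TYRP1* copy ENSDARG00000029204 was 0.51, *slc24a5* 0.47 and *slc45a2* 0.26 higher in exposed embryos on the log2 scale, and *MITF* copy ENSDARG00000003732 was 0.49 and *mlpha* 0.44 lower (differences -0.49 and -0.44). None of these 6 ratios overlapped between the groups, but the share of all genes with such ratios to *dct* is not given here. As *dct* itself rose, any gene that rose less than *dct* is lower relative to it. Moreover, 2 libraries against 2 allow no exact two-sided permutation p under 0.333, and these differences between members are given without a test.

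**Figure D3:**
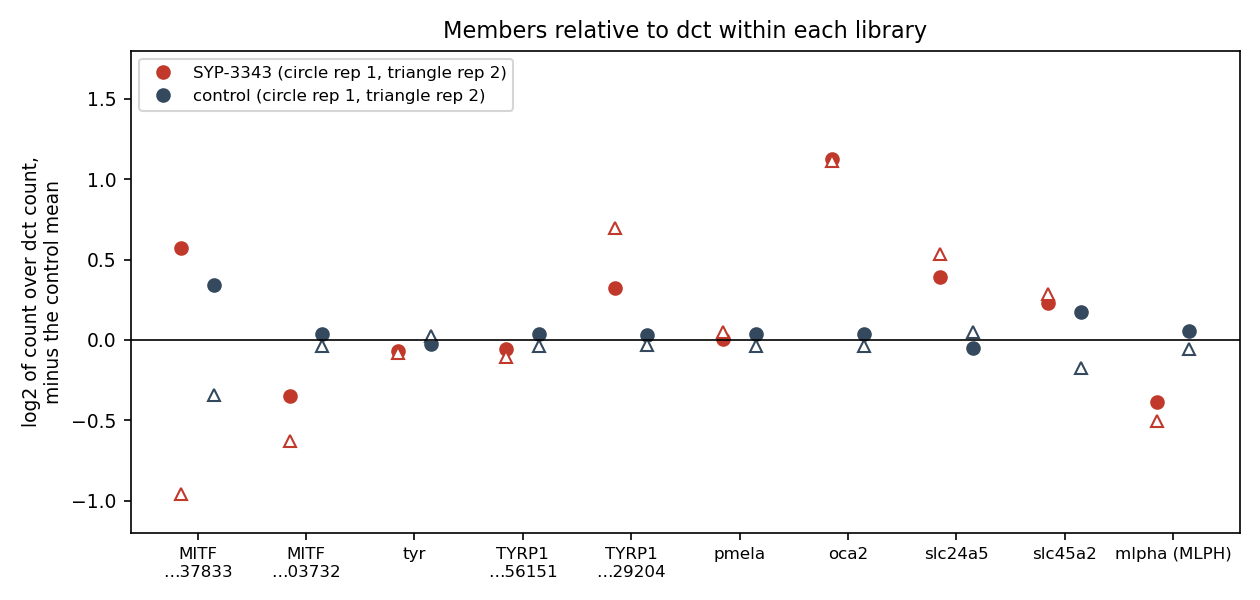
Counts of each member over the counts of *dct* in the same library, on a log2 scale centred on the control mean, for SYP-3343 (red) and control (dark) libraries. *oca2* stands 1.12 above the controls, *pmela* lies at them, and *MITF* copy ENSDARG00000003732 and *mlpha* lie below.

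Genes around the set were taken from lists chosen by function. Over all genes tested, 16.6% were called higher and 15.3% lower with TMM. With library sizes alone these shares were 6.21% and 41.4%. The counts of each list below are to be read beside these shares and were not tested against them. Of 28 tested genes of neural crest and melanophore specification, 3 rose, 4 fell and 21 did not pass (median 0.02). With library sizes alone 2 rose and 13 fell, with a median of -0.32, and without control replicate 2 it was 6 that rose. *SOX10*, the crest factor that activates *mitfa*, did not pass (0.01 ± 0.09), nor did the melanophore receptor gene *KIT* (0.25 ± 0.14). Both changes turned negative with library sizes alone, to -0.32 with an adjusted p of 0.0144 for *SOX10* and to -0.084 for *KIT*. *MYCN* (0.75 ± 0.090), *SOX9* copy ENSDARG00000043923 (0.70 ± 0.10) and *zeb2a* (0.38 ± 0.090) rose, and the endothelin receptor *EDNRB* copy ENSDARG00000089334 (-0.90 ± 0.18), *ZEB2* copy ENSDARG00000078416 (-0.51 ± 0.10), *TFAP2A* and *FOXD3* fell. *zeb2a* was not called with library sizes alone, and *FOXD3* was not called with DESeq2 or without SYP-3343 replicate 1, SYP-3343 replicate 2 or control replicate 1. Of these, *SOX10*, *KIT*, *TFAP2A*, *FOXD3* and *zeb2a* were named after their values were seen. The crest marker *crestin* is listed at 0 in every library, and whether this came from the embryos or from the counting was not tested. Of the 9 tested relatives of the members, 1 rose, 2 fell and 6 did not pass (median -0.13). With library sizes alone 1 of them rose and 5 fell (median -0.46). Among those of MITF, *TFE3* (ENSDARG00000098903) had 13.0 and 9.89 CPM in exposed embryos, against 4.97 and 5.45 CPM in controls, and rose (1.13 ± 0.16). *TFEC* fell (-0.75 ± 0.18), though not without SYP-3343 replicate 2 (adjusted p = 0.056), and *TFEB* (0.09 ± 0.18) and *tfe3b* (-0.11 ± 0.22) did not pass.

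Of 52 tested genes of melanosome biogenesis, transport and content, 11 rose, 7 fell and 34 did not pass (median 0.06). With library sizes alone 3 rose and 22 fell (median -0.27), where 6.21% of all genes were higher and 41.4% lower. Among the higher genes were the BLOC-1 subunits *BLOC1S2* (0.54 ± 0.12) and *BLOC1S6* (0.56 ± 0.13), which sort proteins to melanosomes and other organelles. Neither of them was called with library sizes alone. The other BLOC-1 subunits of the list did not pass, with changes between -0.29 and 0.40. *trpm1b* (-0.57 ± 0.11), a channel gene, was among the lower ones. So were *VPS11* (-0.58 ± 0.11), *myo5ab* (-0.48 ± 0.12) and *MYO7A* copy ENSDARG00000044632 (-0.84 ± 0.22). All these genes, both higher BLOC-1 subunits included, were named after their values were seen. *GPNMB*, which encodes a relative of PMEL, had 17.2 and 18.6 CPM in exposed embryos, against 69.1 and 57.1 CPM in controls, and fell (-1.82 ± 0.11), opposite to *pmela*. *QDPR* copy ENSDARG00000040190 (0.91 ± 0.11), which renews the cofactor tetrahydrobiopterin, and *CD63* (0.54 ± 0.095) rose, *CD63* not with library sizes alone.

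Cells that share or neighbour this pathway were followed by genes listed for them, whose RNA may also come from other tissues of the whole embryo. Over all genes, 16.6% were higher and 15.3% lower with TMM, and 6.21% and 41.4% with library sizes alone. Of 18 tested genes listed for the retinal pigment epithelium, which also makes melanin, 3 rose, 5 fell and 10 did not pass (median 0.06). With library sizes alone 1 rose and 9 fell (median -0.27), and without SYP-3343 replicate 2 or without control replicate 1 it was 3 that fell. *RGR* (-1.16 ± 0.20) and *RPE65* copy ENSDARG00000007480 (-0.73 ± 0.14) fell, and *otx2a* (0.58 ± 0.13, not called with library sizes alone) and *krt18a.1* (1.06 ± 0.11), a keratin gene found in other epithelia too, rose. *OTX2* rose as well (0.30 ± 0.088), and *rx3* (-0.56 ± 0.18) and *rdh5* (-0.49 ± 0.14) fell, all 3 named after their values were seen, and *TFEC*, given above, was the remaining lower one. *OTX2* turned to -0.036 with library sizes alone, and the calls of *OTX2* and *rx3* ended without SYP-3343 replicate 2 or control replicate 1, and that of *rdh5* without SYP-3343 replicate 1 or control replicate 1. The summed level of this list was 982 and 1021 CPM in exposed embryos, against 678 and 618 CPM in controls, of which *krt18a.1* alone made up 649 and 661 CPM in exposed embryos, against 337 and 289 CPM in controls. Without *krt18a.1* the sums overlapped, at 333 and 360.5 CPM in exposed embryos, against 341 and 329 CPM in controls. Of 31 tested markers of iridophores and xanthophores, the reflective and yellow pigment cells, 5 rose, 12 fell and 14 did not pass (median -0.16). In that list 2 rose and 18 fell with library sizes alone, 7 fell without SYP-3343 replicate 2, and 8 rose without control replicate 1. *pnp4a*, an iridophore purine enzyme, fell (-1.70 ± 0.10), with 18.1 and 20.6 CPM in exposed embryos, against 66.6 and 58.9 CPM in controls, and so did *FHL2* copy ENSDARG00000003991 (-1.80 ± 0.23). The purine synthesis genes *PAICS* (0.90 ± 0.11) and *ATIC* (0.82 ± 0.098), active in most cells, rose, as did *GART*, *SCARB1* and *slc22a7a*, which were named after their values were seen and were not called with library sizes alone. The summed level of that list was 2313 and 2553 CPM in exposed embryos, against 1989 and 1916 CPM in controls, but *PAICS* alone made up 1004 and 1167 CPM in exposed embryos, against 604 and 557 CPM in controls. Without *PAICS* the sums overlapped, at 1309 and 1386 CPM in exposed embryos, against 1385 and 1359 CPM in controls. Without *PAICS* and *ATIC* they were lower in exposed embryos, at 958 and 988 CPM, against 1170.4 and 1149 CPM in controls. Each gene left out of these sums, *krt18a.1* included, had risen, so the exposed sums must lose more than the control sums. No gene that fell was left out. The part of these cell types in the rise of the melanin genes was not tested.

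**Figure D4:**
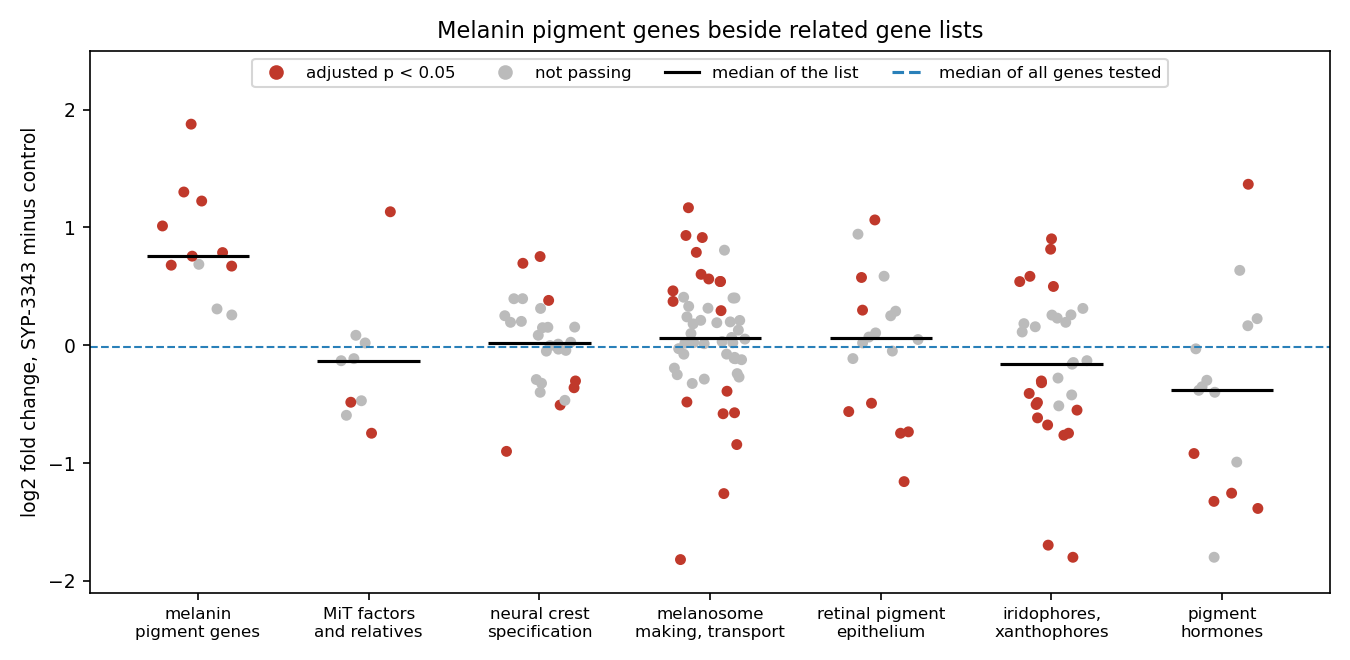
Log2 fold change, SYP-3343 minus control, of each tested gene in the melanin set and 6 related lists (red where the adjusted p was under 0.05, grey where not), with the median of each list (black) and of all genes tested (blue). The melanin set has the highest median, at 0.76, and the pigment hormone list the lowest, at -0.38.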

How the data were processed

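The deposited table gives each gene's raw read counts as the authors made them, for poly-T selected RNA made into NEBNext Ultra libraries, per the labels' protocols. The build GRCz11 and the tools featureCounts 1.6.2, HTSeq, DESeq2 1.14.1, HISAT2 and TopHat2 are named, without roles, per the submitters' processing notes. Annotation and strand setting: not given in the sources used here. The table gives no coordinates. Totals were 49075203 and 49962016 counts in SYP-3343 replicates 1 and 2, and 46165614 and 59054470 in control replicates 1 and 2. Across genes log2 CPM correlated with r = 0.996 or more within groups and 0.984 to 0.985 between them.

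Symbols came from a table of Ensembl names. All genes were filtered with edgeR's filterByExpr, scaled by TMM and put to edgeR 4.0.16's two-sided quasi-likelihood test, in its current and not its legacy form (biological coefficient of variation 10.1%) over 22647 genes, with Benjamini-Hochberg adjustment and a threshold of 0.05. Intervals are 95%. Alternatives used limma 3.58.1, DESeq2 1.42.0, other scalings, filters and left-out libraries, in R 4.3.3, and the code was tested on simulated data. Lists are described by counts and medians. Members and lists were chosen with earlier results of these data known. Named were all members, all tested relatives of them, the 4 genes of each other list with the smallest adjusted p, and the 5 genes nearest to the member with the smallest adjusted p, of which some are not reported here.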

Additional observations from a re-analysis of the deposited data

How the results depend on the processing

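The count of 8 members higher and 0 lower held with RLE, upper-quartile or library-size scaling. It held without a low-count filter, and with a filter on CPM, under which 10 members were tested. It also held with DESeq2, limma-voom, the legacy quasi-likelihood fit (added after the data were seen) and an adjusted p of 0.01. With each library left out in turn, the changes of these 8 stayed above 0. Robust dispersion gave 7, and a log2 fold change of at least 1 gave 4. These 4 were found with TMM, and with library sizes alone only *oca2* among them kept a change that large. Counts over all genes moved more. With library sizes alone 1406 were higher and 9382 lower, against 3770 and 3455 with TMM, 3042 and 4462 with upper-quartile factors, 2039 lower at an adjusted p of 0.01, and 746 in each direction with a log2 fold change of at least 1. Genes of the other pigment lists numbered 24 higher and 31 lower. They were 9 and 67 under library-size scaling, and 4 and 8 with a log2 fold change of at least 1. Among the genes named in the text, signs turned with library sizes alone for 2 that were called higher with TMM, *OTX2* (-0.036) and *cdh5* (-0.072). They also turned for genes that did not pass with TMM, with library sizes alone *MITF* copy ENSDARG00000003732 (-0.077), *mlpha* (-0.027), *TFEB* (-0.25), *pmelb* (-0.32), *SOX10* (-0.32) and *KIT* (-0.084), and with upper-quartile factors *pmelb* (-0.050) and *SOX10* (-0.060). Leaving out single libraries gave ranges from -0.041 to 1.14 for *MITF* copy ENSDARG00000037833, -0.18 to 0.37 for *TFEB*, -0.22 to 0.035 for *tfe3b*, -0.15 to 0.18 for *pmelb*, -0.045 to 0.062 for *SOX10* and -1.03 to 0.27 for *SLC24A4* copy ENSDARG00000067509. The cause was not tested. With the replicate number as a block (a replicate block), 8 members were higher. The numbers are not said to pair the libraries, and the differences between replicates 2 and 1 correlated across 14107 genes with r = -0.05 between the groups. With 2 libraries per group, changes about as small as that of *mlpha* (0.31, not called) were called for some named genes and not for others. *OTX2* (0.30) and *cdh5* (0.26) passed with TMM, while *MITF* copy ENSDARG00000003732 (0.26) and *KIT* (0.25) did not. The smallest change that could be called was not computed.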

Other observations

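Pigment hormones and their receptors, which set how melanin is spread in a cell, were listed apart from the melanin genes. Of 15 tested genes 1 rose, 4 fell and 10 did not pass (median log2 fold change -0.38, and -0.72 with library sizes alone). The one that rose, *MC5R* copy ENSDARG00000054946 (1.37 ± 0.45, named after its value was seen), had 0.927 and 0.954 CPM in exposed embryos, against 0.332 and 0.387 CPM in controls, and was not called with DESeq2, with library sizes alone or when any single library was left out. *MC5R* copy ENSDARG00000031348 did not pass (-0.30 ± 0.25), and 2 fell without SYP-3343 replicate 2. *asip2b*, an agouti-type antagonist of melanocortin receptors, had 5.81 and 6.40 CPM in exposed embryos, against 11.6 and 11.5 CPM in controls, and fell (-0.92 ± 0.14, edgeR adjusted p = 4.04e-05). *aanat2*, an enzyme of melatonin synthesis (-1.32 ± 0.25), and the melatonin receptor genes *mtnr1aa* (-1.38 ± 0.38) and *MTNR1A* (-1.25 ± 0.41) fell as well, with both receptors under 2 CPM and their calls lost without some single libraries. The melanocortin receptor *MC1R* did not pass (-0.40 ± 0.19), but was lower with library sizes alone (-0.73, adjusted p = 0.00672).

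The genes whose levels over the 4 libraries were nearest to those of *oca2*, by Euclidean distance of log2 CPM from the control mean, were *pcdh2ab2* (distance 0.15), *neurog1* (0.16), *si:rp71-1n18.1* (0.16), *si:ch1073-127d16.1* (0.20) and *DDX21* (0.23). Each was, by this choice, higher in both exposed libraries, as *oca2* was. Of them *neurog1*, a proneural factor, had 48.4 and 56.3 CPM in exposed embryos, against 13.4 and 13.5 CPM in controls. *pcdh2ab2* belongs to a cluster of similar protocadherin genes, among which reads may be split.

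Of broad tissue markers the hatching enzyme gene *he1.1* (2.09 ± 0.14) and the skin keratin *krt4* (0.94 ± 0.17, not called without control replicate 2, adjusted p = 0.0537) rose, and *crx* copy ENSDARG00000011989 (-0.77 ± 0.093) fell. Across the 19 tested identifiers of that list, 5 rose, 3 fell and 11 did not pass, and 2 rose without SYP-3343 replicate 2 or without control replicate 2 and 3 without control replicate 1. The others that rose were *ELAVL3*, *actc1b* and *cdh5*, and *CRX* copy ENSDARG00000043483 fell, all named after their values were seen. Each of these 4 lost its call without at least 1 of the libraries, and *cdh5* turned to -0.072 with library sizes alone.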
